A study of Mus musculus with 8 samples.

Results

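NF-κB is a family of 5 transcription factor subunits, Nfkb1, Nfkb2, Rel, Rela and Relb, held in check by inhibitors that its own activity induces, of which Nfkbia, Nfkbie, Nfkbiz, Tnfaip3 and Bcl3 were examined together with the subunits. These 10 genes were chosen by name from the 55487 genes counted in RNA-seq of cultured Lewis lung carcinoma (LLC) cells, a mouse lung tumor line. The study compared 4 libraries of wild-type LLC cells with 4 libraries of LLC cells in which Ago2, the small-RNA-guided nuclease of RNA interference, was knocked out (ΔAgo2), to ask how tumor cells that lack Ago2 differ. Per the labels all 8 libraries are biological replicates of a single batch, grown in the same serum-containing medium, and no stimulus of NF-κB or other treatment is named. The knock-out was made with a lentivirus carrying Cas9 and a guide against Ago2, followed by puromycin selection and sorting of single cells into clones. The labels do not say which clone was sequenced, whether the 4 ΔAgo2 libraries share it, or whether the wild-type cells carried a control virus, so the p-values below measure the spread between these libraries only.

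NF-κB subunits act as dimers. In the canonical arm, Rela and Rel pair with p50, the processed product of Nfkb1, and are kept in the cytoplasm by IκB proteins such as Nfkbia and Nfkbie until the IKK kinases mark the IκB for destruction. In the non-canonical arm, Relb pairs with p52, the processed product of Nfkb2. Freed dimers bind κB sites and switch on, among others, their own inhibitors, a feedback that is well known from inflamed tissue and from carcinoma cells.

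The reference promoters of the 10 genes were searched for κB sites. RefSeq promoters of GRCm38.p6, spanning 250 bases before to 50 after a transcription start, were given for 7 of the 10 genes, all but Nfkb1, Relb and Nfkbiz. The κB consensus, searched on both strands, matched in promoters of 6 of these 7 genes, the exception being Rela, whereas 5.14% of 27025 mouse genes and 4.51% of 32851 promoters held a match. A match is a string of letters and was not tested for binding. Some stretches before the start that hold a match follow, for subunits and inhibitors alike. The inhibitors were examined as genes that NF-κB activity induces, so matches in their promoters are no independent evidence of the feedback. Each stretch has 30 bases read 5′ to 3′ on the strand of the gene, with the match in capitals.
Nfkb2 (chr19:46304688-46304717, plus strand): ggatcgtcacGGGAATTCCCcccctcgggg
Nfkb2, a later start (chr19:46305695-46305724, plus strand): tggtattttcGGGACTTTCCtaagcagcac
Rel (chr11:23771042-23771071, minus strand): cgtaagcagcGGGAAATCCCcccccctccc
Nfkbia (chr12:55492657-55492686, minus strand): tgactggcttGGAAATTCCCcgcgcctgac
Nfkbie (chr17:45555584-45555613, plus strand): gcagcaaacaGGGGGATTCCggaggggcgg
Tnfaip3 (chr10:19015516-19015545, minus strand): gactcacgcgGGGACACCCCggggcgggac
Tnfaip3 (chr10:19015411-19015440, minus strand): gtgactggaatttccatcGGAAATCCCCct
The matches shown for Nfkbia and for the earlier Nfkb2 start end 19 and 29 bases before the transcription start, and the second one of Tnfaip3 ends 2 bases before it. Those of Rel, Nfkbie and the first one of Tnfaip3 lie farther out, ending 82, 96 and 115 bases before the start. The match shown for the later Nfkb2 start ends 215 bases before it. The same match begins 10 bases after another Nfkb2 start, which lies between the earlier and the later one. The match for Bcl3 lies after the start and is not shown. Also not shown are Nfkb2 matches that end 1 base before the earlier start and 226 bases before the start between it and the later start.

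The deepest library held 68530912 and the shallowest 39628101 counts, and depths overlapped between the genotypes. Wild-type replicate 4 stood apart. Its median Spearman correlation with the other wild-type libraries over the tested genes was 0.864, against 0.948 to 0.961 for the other wild-type and 0.985 to 0.986 for the ΔAgo2 libraries, and 0.540% of its counts came from mitochondrial genes, against 2.39% to 4.51% elsewhere. ΔAgo2 replicates 1 and 2 were the closest pair of their group. Their chi-square per gene was 22.8, against 89.0 to 126 for the other ΔAgo2 pairs. The tests below treat the 4 ΔAgo2 libraries as equally independent, which was not tested. Ago2 itself was counted at 119 to 519.5 CPM (counts scaled to the library size, written CPM) across wild-type and at 293 to 408 CPM across ΔAgo2 libraries, so its transcript level did not tell the labels apart, with an adjusted p of 0.908 in edgeR. A Cas9 cut can leave the transcript in place, and the level of the protein cannot be read from these counts. The epithelial markers Epcam and Cdh1 had at most 1 and 9 counts in any library, while the keratins Krt8 and Krt18 and all 5 mesenchymal markers were present. Of 7 immune markers only Itgax passed 3 counts, and the leukocyte marker Ptprc had at most 2. The 3 endothelial markers summed to at most 0.75 TPM, the per-length scale of the authors.

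All 10 genes passed the filter on low counts, together with 14218 others. None was called different between the genotypes by edgeR's quasi-likelihood test at an adjusted p under 0.05, where 0.295% of all tested genes were called, and none had an unadjusted p under 0.05, where 7.34% of all genes did. DESeq2 likewise called 0 of the 10, with 0 at an unadjusted p under 0.05, against backgrounds of 2.23% and 6.48%. In CPM, the wild-type and ΔAgo2 libraries overlapped for each of the 10 genes, whereas 6.07% of tested genes had groups that did not overlap. Their log2 fold changes, ΔAgo2 over wild-type, had a median of −0.12, next to −0.11 over all tested genes. Without wild-type replicate 4 these medians were 0.21 and −0.037. As the libraries are bulk RNA, a change in the share of cells that express a gene and a change in RNA per cell could not be told apart.

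**Figure D1:**
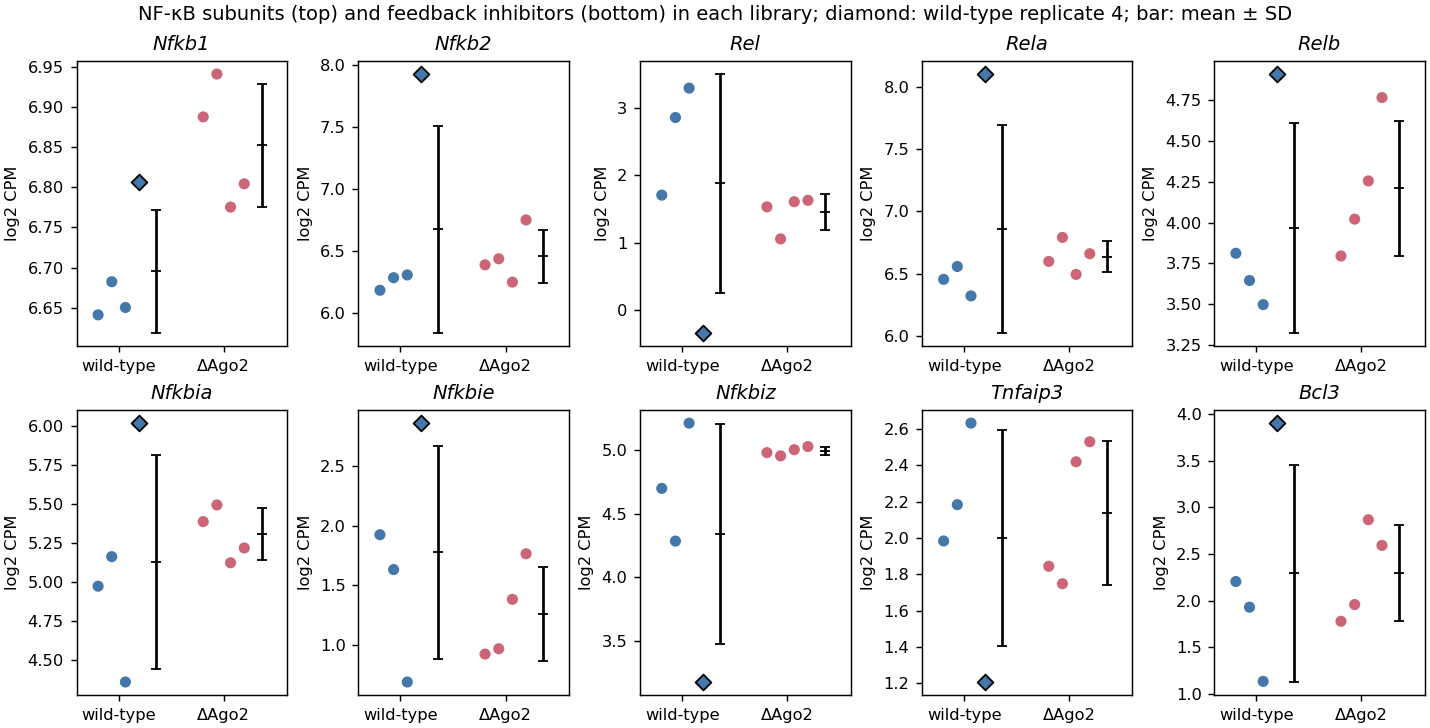
Log2 CPM of each gene (vertical axis, a separate scale in each panel) in the 4 wild-type and 4 ΔAgo2 libraries (points in the order of replicates 1 to 4), with the mean and SD of each group as a bar. Wild-type replicate 4 (diamond) is the highest of all 8 libraries for Nfkb2, Rela, Relb, Nfkbia, Nfkbie and Bcl3 and the lowest for Rel, Nfkbiz and Tnfaip3.

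Nfkb1 (ENSMUSG00000028163.17, chr3:135584655-135691547 of GRCm38, minus strand), the source of p50, was among the steadiest of the 10. It stood at 99.8, 103, 100.4 and 112 CPM in wild-type replicates 1 to 4 and at 118, 123, 109.5 and 112 CPM in ΔAgo2 replicates 1 to 4. The ΔAgo2 libraries all lay above wild-type replicates 1 to 3, and only wild-type replicate 4 reached into their range. The group means were 104 ± 5.63 CPM for wild-type and 116 ± 6.11 CPM for ΔAgo2 (SD, n = 4 each). edgeR put the log2 fold change at 0.16 ± 0.22 (SE), with a 95% interval from −0.32 to 0.64 and an adjusted p of 0.862. Without wild-type replicate 4 it was 0.20 ± 0.13 with an adjusted p of 0.546, and groups that do not overlap were then found for 12.1% of tested genes.

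Rela (ENSMUSG00000024927.8, chr19:5637483-5648130, plus strand), the main activating subunit of the canonical arm, was at 87.6, 94.2, 79.9 and 276 CPM in wild-type and at 96.9, 111, 90.1 and 101 CPM in ΔAgo2 replicates 1 to 4. Wild-type replicate 4 was thus far above the other 7 libraries, which lay close together. By edgeR Rela had a log2 fold change of −0.43 ± 0.41 (SE; 95% interval −1.33 to 0.47, adjusted p = 0.809, edgeR). It turned to 0.20 ± 0.14 without wild-type replicate 4, with an adjusted p of 0.590. Nfkb2 (ENSMUSG00000025225.15, chr19:46304320-46312385, plus strand), the source of p52, followed the same course. Its wild-type values were 72.6, 77.9, 79.1 and 244 CPM, and its ΔAgo2 values were 83.7, 86.6, 76.0 and 108 CPM. Again wild-type replicate 4 stood above all others. Its log2 fold change of −0.42 ± 0.41 (SE; 95% interval −1.33 to 0.50, adjusted p = 0.816) turned to 0.22 ± 0.16 without that library, with an adjusted p of 0.606 in edgeR. On the opposite strand, Nfkb2 overlaps Psd, with 344 to 742 counts, and the non-coding AC114539.1, with 163 to 432 counts. The strand setting of the counting is not given in the sources used here.

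Relb (ENSMUSG00000002983.17, chr7:19606217-19629438, minus strand), the partner of p52, was at 14.03, 12.5, 11.3 and 30.1 CPM in wild-type and at 13.9, 16.2, 19.1 and 27.2 CPM in ΔAgo2 replicates 1 to 4. The highest value of either group was its replicate 4, and ΔAgo2 replicate 1 lay within the range of wild-type replicates 1 to 3. For Relb the log2 fold change was 0.17 ± 0.38 (SE; 95% interval −0.68 to 1.02, adjusted p = 0.924, edgeR). Without wild-type replicate 4 it was 0.61 ± 0.25, with an interval from 0.035 to 1.18, an unadjusted p of 0.0399 and an adjusted p of 0.367 in edgeR. Without ΔAgo2 replicate 4 it was −0.044, and without wild-type replicate 1, 2 or 3 it was 0.095, 0.034 or 0.023.

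Rel (ENSMUSG00000020275.9, chr11:23736847-23770970, minus strand), the subunit best known from lymphocytes, was the most scattered of the 5. Its CPM were 3.25, 7.27, 9.85 and 0.78 in wild-type and 2.88, 2.07, 3.04 and 3.08 in ΔAgo2 replicates 1 to 4, resting on 25 to 663 counts. The ΔAgo2 libraries lay within 2.07 to 3.08 CPM, under wild-type replicates 1 to 3 and above wild-type replicate 4. The log2 fold change of −0.94 ± 0.63 (SE; 95% interval −2.33 to 0.45) did not pass the test, with an adjusted p of 0.742 in edgeR. Without wild-type replicate 4 it was −1.29 ± 0.39, with an interval from −2.17 to −0.42, an unadjusted p of 0.00866 and an adjusted p of 0.212 in edgeR. Without wild-type replicate 3, the highest library, it was −0.45 with an unadjusted p of 0.485 and an adjusted p of 0.793. When wild-type replicate 4 was left out, Rel and Relb were the 2 of the 10 genes with an unadjusted p under 0.05, 1 lower and 1 higher in ΔAgo2, against 12.6% of all tested genes, 7.04% lower and 5.52% higher, and 0.777% of tested genes passed the adjusted p.

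Among the inhibitors, Nfkbia (IκBα; ENSMUSG00000021025.8, chr12:55489410-55492647, minus strand), which holds Rela dimers in the cytoplasm and is resynthesized when they act, was at 31.4, 35.8, 20.5 and 64.9 CPM in wild-type and at 41.9, 45.1, 34.9 and 37.2 CPM in ΔAgo2 replicates 1 to 4. All 4 ΔAgo2 libraries lay above wild-type replicates 1 and 3 and below wild-type replicate 4. The log2 fold change was 0.060 ± 0.35 (SE; 95% interval −0.71 to 0.83, adjusted p = 0.975, edgeR). Without wild-type replicate 4 it was 0.45 ± 0.21 with an unadjusted p of 0.0632 and an adjusted p of 0.429, and without wild-type replicate 1 or 3 it was −0.019 or −0.14. Nfkbie (IκBε; ENSMUSG00000023947.8, chr17:45555703-45563169, plus strand), a slower inhibitor of the same kind, was at 3.78, 3.09, 1.6 and 7.23 CPM in wild-type and at 1.89, 1.95, 2.60 and 3.39 CPM in ΔAgo2. Its ΔAgo2 values fell inside the wild-type range. This put its log2 fold change at −0.67 ± 0.48 (SE) with an adjusted p of 0.757, and −0.19 ± 0.39 without wild-type replicate 4.

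Nfkbiz (IκBζ; ENSMUSG00000035356.17, chr16:55811375-55838899, minus strand) and Bcl3 (ENSMUSG00000053175.17, chr7:19808462-19822770, minus strand) are nuclear members of the IκB family that can help p50 or p52 dimers to activate genes as well as to repress them. Nfkbiz was at 26.0, 19.5, 37.1 and 9.03 CPM in wild-type and at 31.6, 31.0, 32.1 and 32.6 CPM in ΔAgo2 replicates 1 to 4. Its ΔAgo2 libraries were nearly equal, with a mean of 31.8 ± 0.690 CPM (SD, n = 4), and lay above 3 of the 4 wild-type libraries, whose mean was 22.9 ± 11.7 CPM. The log2 fold change was 0.47 ± 0.38 (SE; 95% interval −0.37 to 1.32, adjusted p = 0.779, edgeR) and was 0.22 ± 0.22 without wild-type replicate 4. Without wild-type replicate 3 it was 0.81, with an unadjusted p of 0.0526 and an adjusted p of 0.535 in edgeR. Bcl3 was at 4.6, 3.80, 2.18 and 14.9 CPM in wild-type and at 3.42, 3.87, 7.28 and 6.02 CPM in ΔAgo2. Replicate 4 of wild-type was the highest of all 8 libraries, and the log2 fold change of −0.31 ± 0.58 (SE; 95% interval −1.58 to 0.97, adjusted p = 0.908) turned to 0.56 ± 0.38 without wild-type replicate 4, with an adjusted p of 0.578 in edgeR. The antisense genes over Bcl3 had at most 27 counts in any library.

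Tnfaip3 (A20; ENSMUSG00000019850.11, chr10:19000910-19015657, minus strand), an enzyme that edits ubiquitin chains upstream of IKK and so shuts the pathway off, was at 3.94, 4.53, 6.20 and 2.30 CPM in wild-type and at 3.58, 3.35, 5.34 and 5.77 CPM in ΔAgo2 replicates 1 to 4. The groups overlapped over most of their range. Tnfaip3 had a log2 fold change of 0.086 ± 0.39 (SE; 95% interval −0.79 to 0.96, adjusted p = 0.966, edgeR). It was −0.11, −0.017 and −0.051 without wild-type replicate 4, ΔAgo2 replicate 3 and ΔAgo2 replicate 4.

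**Figure D2:**
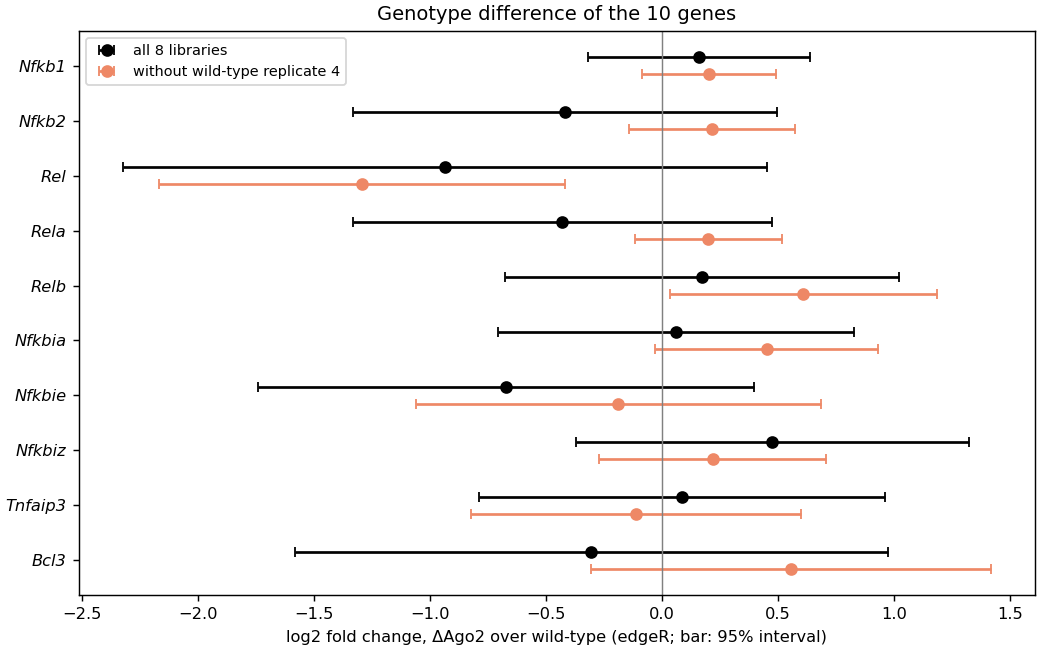
Log2 fold change of each gene, ΔAgo2 over wild-type, with its 95% interval (edgeR, horizontal axis), from all 8 libraries (black) and without wild-type replicate 4 (orange). With all libraries every interval includes 0, and without that library those of Rel (−2.17 to −0.42) and Relb (0.035 to 1.18) do not, at adjusted p of 0.212 and 0.367.

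The scatter of the 10 genes within wild-type was smaller without replicate 4. The median SD of their log2 CPM was 0.84 over the 4 wild-type libraries, 0.38 over wild-type replicates 1 to 3 and 0.24 over the ΔAgo2 libraries, close to the 0.80, 0.43 and 0.24 of all tested genes. The direction in which replicate 4 departed followed the GC content of the transcripts. Its log2 CPM minus the mean of wild-type replicates 1 to 3 was −2.97 for Rel, −1.06 for Tnfaip3 and −1.56 for Nfkbiz, whose longest transcripts have 42.5%, 47.1% and 50.1% GC. It was 1.19 for Nfkbia at 52.9% GC, 1.44 for Nfkbie at 55.4% and 1.26 for Relb at 56.8%. It was 1.66 and 1.67 for Rela and Nfkb2, both at 59.4%, and 2.15 for Bcl3 at 62.6%. Nfkb1 stood off this order, at 0.15 with 44.9% GC. Nfkbiz was also off it, being lower than Tnfaip3 at a higher GC content, and Nfkbie and Relb were exchanged. The Spearman correlation of GC content with this departure was 0.94 across the 10 genes and 0.72 across 14226 tested genes, which are not independent replicates and share the same libraries.

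**Figure D3:**
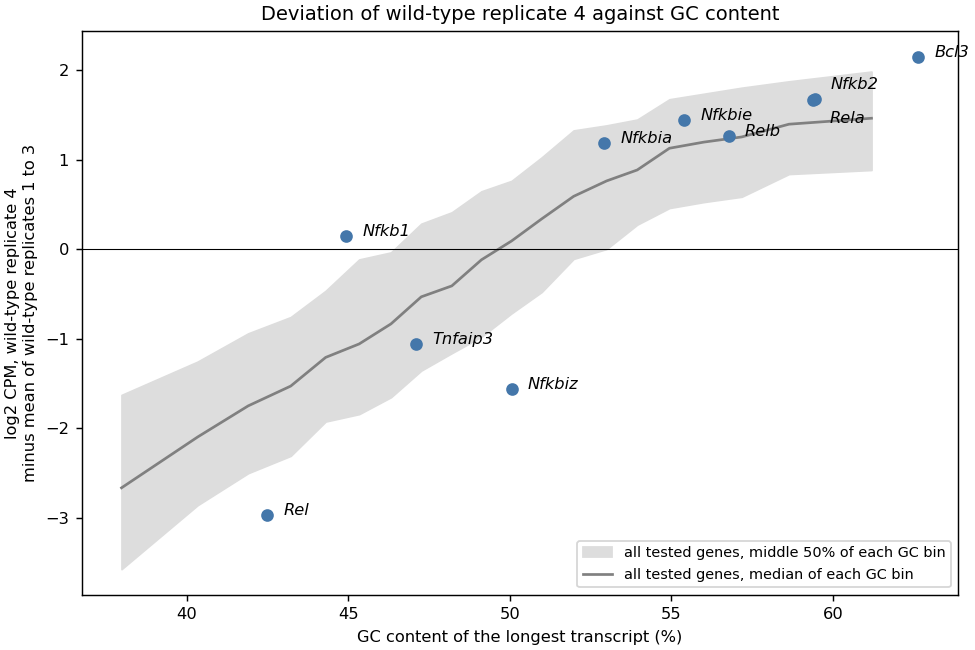
Log2 CPM of wild-type replicate 4 minus the mean of wild-type replicates 1 to 3 (vertical axis) against the GC content of the longest transcript in percent (horizontal axis) for the 10 genes (points), with the median (line) and the middle 50% (band) of all tested genes in 20 bins of GC content. The points rise from −2.97 for Rel to 2.15 for Bcl3, with Nfkb1 above the band, Rel and Nfkbiz below it, and Bcl3 beyond its last bin of GC content and above that bin's upper edge.

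When each library was corrected for GC content, the log2 fold change of Rel was −1.01, with an unadjusted p of 0.0366 and an adjusted p of 0.466, and that of Relb was 0.56, with 0.0498 and 0.502, in edgeR. Those of Nfkb2, Rela and Bcl3 changed sign to 0.10, 0.084 and 0.32, as they did without replicate 4, and that of Nfkb1 changed to −0.16, which it did not do without replicate 4. No member passed an adjusted p of 0.05 under any of the 20 alternatives, where their adjusted p ran from 0.212 to 1.00. Rel and Nfkbie stayed lower and Nfkbiz higher in ΔAgo2 in all 20.

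Compared per length of transcript, as TPM averaged over all 8 libraries, Rela was the most abundant of the 10 at 120.2, followed by Nfkbia at 79.4, Nfkb2 at 71.1 and Nfkb1 at 30.7. Rela lay above Nfkbia in 8 of 8 libraries, and Nfkb2 above Nfkb1 in 8 of 8. Nfkbia and Nfkb2 were not separated, with Nfkbia higher in 5 of 8 libraries. Nfkbiz at 18.9 TPM and Relb at 15.1 TPM exchanged places in 2 of the 8 libraries. Below them came Bcl3 at 7.20, Nfkbie at 3.29, Tnfaip3 at 2.08 and Rel at 1.90 TPM. Rel and Tnfaip3 did not keep their order, Tnfaip3 being higher in 6 of 8 libraries and in all 4 ΔAgo2 libraries. The transcripts of these cells thus held the activating subunit Rela and the inhibitor Nfkbia in quantity, and little of Rel, of which wild-type libraries had 1.35, 3.81, 4.52 and 0.23 TPM and ΔAgo2 libraries 1.46, 1.00, 1.38 and 1.46 TPM. The scale matters for Nfkb1 in wild-type replicate 4, which at 20.6 TPM was the lowest of all 8 libraries but at 112 CPM the highest in wild-type.

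Within a library the subunits can be set against each other, which needs no scaling between libraries. Rela made up 50.9 ± 3.90% (SD, n = 4) of the summed TPM of the 5 subunits in wild-type and 48.8 ± 2.83% in ΔAgo2, and Nfkb2 30.1 ± 2.50% and 28.9 ± 2.28%. The share of Nfkb1 was 12.4 ± 4.38% in wild-type and 14.5 ± 1.23% in ΔAgo2. Relb took 5.44 ± 0.658% and 7.34 ± 1.87%, and Rel 1.2 ± 1.00% and 0.562 ± 0.120%. In the wild-type mean, replicate 4 alone held 5.80% Nfkb1 and 0.065% Rel, where the other 3 libraries held 14.1% to 14.9% and 0.771% to 2.37%. None of the 5 shares passed an exact two-sided permutation test over libraries, the smallest p being 0.114 for Relb, where 4 against 4 can reach 0.0286.

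**Figure D4:**
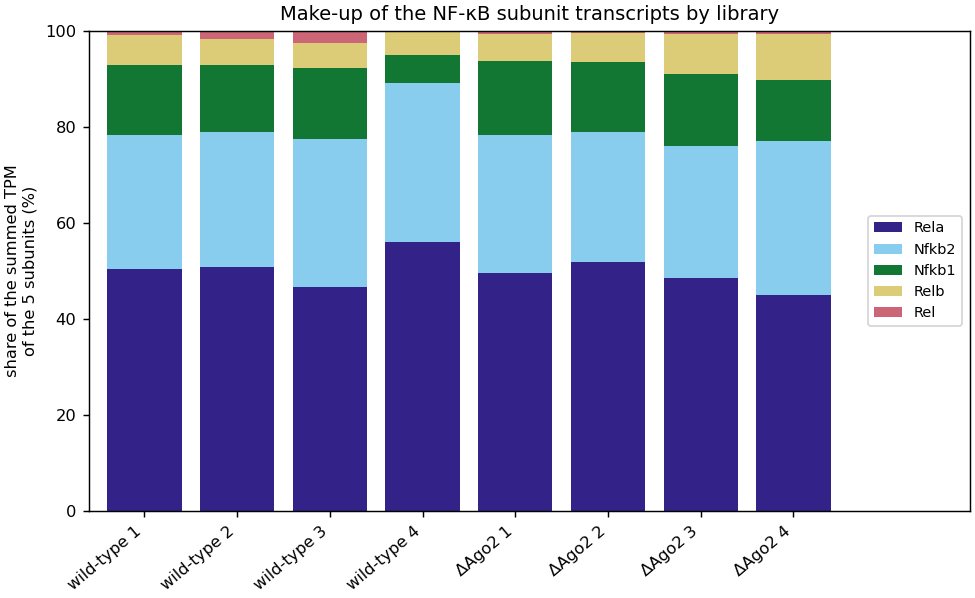
Share of each subunit in the summed TPM of Rela, Nfkb2, Nfkb1, Relb and Rel (vertical axis, percent) in each library. Rela and Nfkb2 are the largest parts of every bar, and wild-type replicate 4 has the smallest parts for Nfkb1 (5.80%) and Rel (0.065%).

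The balance of the non-canonical to the canonical subunits, the log2 ratio of summed TPM of Nfkb2 and Relb over Nfkb1, Rela and Rel, was −0.86 ± 0.13 in wild-type and −0.82 ± 0.23 in ΔAgo2 (SD, n = 4; exact permutation p = 0.800). The log2 ratio of the 5 inhibitors to the 5 subunits was −1.25 ± 0.30 in wild-type and −0.94 ± 0.11 in ΔAgo2, with an exact permutation p of 0.0857. In wild-type replicates 1 to 4 this last ratio was −1.0, −1.04, −1.32 and −1.65, and in ΔAgo2 −0.87, −0.92, −0.89 and −1.10. The 3 highest values were ΔAgo2 libraries, and ΔAgo2 replicate 4 fell among the wild-type values. Of the 5 inhibitors, Nfkbia had the highest mean TPM, 70.1 in wild-type and 88.7 in ΔAgo2, next to 15.1 and 22.7 for Nfkbiz. The sum also counts Nfkbiz and Bcl3 as inhibitors, although they can help to activate genes. Adjusted over the 7 composition values, p was 0.4 to 0.8. Without wild-type replicate 4, where 3 against 4 can reach 0.0571, the exact p was 0.0571 for the share of Rel and 0.171 to 1.00 for the other 6 values.

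The 10 genes differed in how alike their patterns over the 8 libraries were. After centring each gene on its mean log2 CPM, the closest pair was Nfkb2 and Rela, with a root mean square difference of 0.14, and the farthest was Rel and Bcl3 at 1.74. Over all tested genes the nearest single pattern to Rela was that of Psmb4, a proteasome subunit, at 0.040, where the median gene differed from Rela by 0.76. Nfkb1 was nearest to Stau1, at 0.046 against a median of 0.59, and Nfkb2 to Tmem109, at 0.072 against 0.77. Relb was nearest to Wdr73 (0.15) and Rel to Slc12a2 (0.27). The nearest to Nfkbia was Gusb (0.097), to Nfkbie Rcor2 (0.10), to Nfkbiz Rell1 (0.11), to Tnfaip3 Spin4 (0.097) and to Bcl3 Lipe (0.23). These distances rest on 8 libraries and include the departure of wild-type replicate 4.

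The wider pathway was described by lists of its other parts, 108 genes in all. In each of the 7 lists edgeR called 0 genes at an adjusted p under 0.05, where 0.295% of all tested genes were called. DESeq2 called Nlrc3, Tnip3 and Plau, where it called 2.23% of all genes that it gave an adjusted p. The IKK complex and its upstream kinases were all counted, with 17 of 17 tested, a median log2 fold change of 0.11 and 1 gene higher at an unadjusted p under 0.05, where 2.72% of all tested genes were higher. That gene was Ikbke, the inducible IKK-related kinase, at 26.0, 15.0, 18.6 and 23.2 CPM in wild-type, and at 39.8, 40.5, 38.6 and 26.0 CPM in ΔAgo2. The lowest ΔAgo2 library only just cleared the highest wild-type one. Its log2 fold change was 0.81 ± 0.28 (SE), with an unadjusted p of 0.0160 and an adjusted p of 0.505 in edgeR. The most abundant of this list, Map3k3 and Tab2, had log2 fold changes of −0.13 and −0.19, and leaving out a library moved Tab2 between −0.49 and 0.33. The median of the list was 0.039 without wild-type replicate 4. The other IκB genes were Nfkbib (IκBβ) at −0.12 and Nfkbid, a nuclear member of low counts, at −0.56, and without wild-type replicate 4 they were at 0.39 and −0.078. Nfkbib then had an unadjusted p of 0.0478 and an adjusted p of 0.391 in edgeR, and its groups did not overlap. Without that library 5.52% of all tested genes were higher at an unadjusted p under 0.05, and 12.1% had groups that did not overlap. Of the adaptors and ubiquitin ligases 18 of 18 were tested, with a median of −0.20 and 0 genes at an unadjusted p under 0.05 in edgeR, and the most abundant, Rbck1 of the linear ubiquitin ligase and Fbxw11 of the ligase that removes phosphorylated IκB, were at −0.22 and −0.18. For 1 gene of this list all ΔAgo2 libraries lay below all wild-type libraries in CPM. Groups that did not overlap, in either direction, were found for 6.07% of tested genes. The median of this list turned to 0.069 without wild-type replicate 4, Rbck1 turned to 0.36, and Fbxw11 was at −0.24. In that fit Birc2, an inhibitor of apoptosis that acts as a ubiquitin ligase, was the 1 gene of this list at an unadjusted p under 0.05. Birc2 is named for that reason, a choice made after its values were seen. It was at −0.64 with an adjusted p of 0.366 in edgeR. At an unadjusted p under 0.05, 7.04% of all tested genes were lower in that fit.

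Of the other negative regulators 11 of 12 were tested, with a median of −0.12 and 1 gene higher at an unadjusted p under 0.05, next to 2.72% of all tested genes, and the median turned to 0.11 without wild-type replicate 4. Nlrc3, a restrainer of innate signalling, was at 3.99, 2.39, 1.53 and 2.98 CPM in wild-type and at 13.9, 13.2, 16.7 and 6.56 CPM in ΔAgo2. All 4 ΔAgo2 libraries lay above all 4 wild-type libraries, where 6.07% of tested genes had groups that did not overlap. Its log2 fold change was 2.21 ± 0.42 (SE; 95% interval 1.27 to 3.14) with an unadjusted p of 3.3e-04 and an adjusted p of 0.0797 in edgeR, and DESeq2 called it at an adjusted p of 2.0e-05. Tnip3, a partner of Tnfaip3, was left out by the edgeR filter and is named because DESeq2 called it lower in ΔAgo2 at an adjusted p of 1.1e-04, a choice made after its values were seen. It had 198, 100, 3 and 12 counts in wild-type and 3, 2, 0 and 1 counts in ΔAgo2 replicates 1 to 4, so that its level in wild-type rested on replicates 1 and 2. The most abundant of the list, Tax1bp1 and Pdlim2, which help to terminate NF-κB signals, were at 0.46 and −0.51. When wild-type replicate 4 was left out, Tax1bp1 was at 0.11 and Pdlim2 turned to 0.67, with an unadjusted p of 0.0599 in edgeR.

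Transcripts of the cytokines that start the pathway were scarce. Of 12 ligands 8 were not tested, among them Tnf with at most 2 counts in any library, Il1a with at most 1, and Il1b, Tnfsf11 and Cd40lg with 0. A count of 0 does not show that a transcript was absent. Il18 was at 2.42, 1.25, 0.70 and 1.86 CPM in wild-type and at 3.78, 4.77, 3.26 and 2.04 CPM in ΔAgo2, a log2 fold change of 1.16 ± 0.47 (SE; unadjusted p = 0.0334, adjusted p = 0.618, edgeR). ΔAgo2 replicate 4 lay below wild-type replicate 1. Il33 had a log2 fold change of −3.75 ± 1.46 (SE; unadjusted p = 0.0273, adjusted p = 0.592, edgeR), but its 39.7 CPM in wild-type replicate 1 stood against 0.55, 0.37 and 0.87 CPM in the other wild-type libraries and 0.21 to 1.27 CPM in ΔAgo2. Without wild-type replicate 1 its log2 fold change was 0.38. Tnfsf12 (TWEAK), the most abundant ligand next to Il18, was at −0.051, and Tnfrsf12a, its receptor, at −0.042. Both turned when wild-type replicate 4 was left out, to 0.57 and 0.51, with adjusted p of 0.367 and 0.293 in edgeR. The median of the 4 tested ligands was −0.74, and −0.048 without that library. At an unadjusted p under 0.05 in edgeR, 1 ligand was higher and 1 lower. Among all tested genes 2.72% were higher and 4.62% lower. Without wild-type replicate 4, 2 ligands were higher and 1 lower, where 5.52% of all tested genes were higher and 7.04% lower.

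Receptors were present for several of these ligands. Of 15 receptors 12 were tested, with a median log2 fold change of 0.012, and of 0.17 without wild-type replicate 4. At an unadjusted p under 0.05 in edgeR, 1 receptor was higher and 1 lower. Among all tested genes 2.72% were higher and 4.62% lower. Without wild-type replicate 4, 2 receptors were higher and 1 lower, where 5.52% of all tested genes were higher and 7.04% lower. Il1rap, the shared chain of the IL-1 and IL-33 receptors, was at 43.7, 11.9, 26.0 and 4.75 CPM in wild-type and at 60.3, 49.1, 60.5 and 47.3 CPM in ΔAgo2. Its groups did not overlap, which held for 6.07% of tested genes in either direction. The log2 fold change of Il1rap was 1.33 ± 0.55 (SE; unadjusted p = 0.0358, adjusted p = 0.637, edgeR). Tnfrsf11a (RANK), a receptor that feeds the non-canonical arm, was at 9.46, 9.96, 6.92 and 3.94 CPM in wild-type and at 4.15, 3.99, 3.26 and 3.86 CPM in ΔAgo2. Its log2 fold change was −0.99 ± 0.36 (SE; unadjusted p = 0.0212, adjusted p = 0.552, edgeR), and wild-type replicate 4 lay among the ΔAgo2 values. Tnfrsf1a, the TNF receptor and with Tnfrsf12a the most abundant of the list, was at −0.20 and turned to 0.23 without wild-type replicate 4.

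Among 32 known target genes of NF-κB, 21 were tested, and 4 of them were higher and 0 lower in ΔAgo2 at an unadjusted p under 0.05, where 2.72% of all tested genes were higher and 4.62% lower. Their median log2 fold change was 0.11. For 3 targets all ΔAgo2 libraries lay above all wild-type libraries in CPM, where 6.07% of tested genes had groups that did not overlap. Leaving out wild-type replicate 4 gave a median of 0.35, and 6 targets were higher and 0 lower, where 5.52% of all tested genes were higher and 7.04% lower. The list was chosen with earlier results of these data known, so these counts describe it and are no test of the pathway. Plau, the urokinase protease, was at 371, 133, 171 and 169.8 CPM in wild-type and at 560.1, 617, 803 and 897 CPM in ΔAgo2. Every ΔAgo2 library exceeded every wild-type library. Plau had a log2 fold change of 1.77 ± 0.37 (SE; 95% interval 0.95 to 2.59) with an unadjusted p of 6.8e-04 and an adjusted p of 0.110 in edgeR, and DESeq2 called it at an adjusted p of 8.3e-04. Ccl2, the monocyte chemokine, was at 156, 29.4, 8.45 and 18.1 CPM in wild-type and at 217, 219, 239.6 and 311 CPM in ΔAgo2. Wild-type replicate 1 was far above the other 3 wild-type libraries and still below all ΔAgo2 libraries. Over all 8 libraries the log2 fold change was 2.22 ± 0.77 (SE), with an unadjusted p of 0.0158 and an adjusted p of 0.505 in edgeR. Without wild-type replicate 1, the wild-type library nearest to ΔAgo2, it was 3.73 with an adjusted p of 0.0393 in edgeR. That fit called 12 of 14497 tested genes, and Ccl2 was called in no other setting.

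Vcam1, an adhesion molecule for leukocytes, was at 175, 215, 97.6 and 59.0 CPM in wild-type and at 278, 264, 525 and 423 CPM in ΔAgo2, without overlap. Its log2 fold change was 1.45 ± 0.43 (SE; unadjusted p = 0.00665, adjusted p = 0.346, edgeR). Sele, the adhesion molecule E-selectin, was at 17.6, 3.81, 2.41 and 1.37 CPM in wild-type and at 34.4, 31.6, 15.2 and 7.98 CPM in ΔAgo2, a log2 fold change of 1.83 ± 0.78 (SE; unadjusted p = 0.0403, adjusted p = 0.657, edgeR). Its groups overlapped through wild-type replicate 1. Pecam1, Cdh5 and Kdr, markers of endothelium, where Vcam1 and Sele are best known, had at most 20, 39 and 6 counts in any library. Their summed level was 0.030 to 0.30 TPM in wild-type and 0.17 to 0.75 TPM in ΔAgo2, and their part in the values of Vcam1 and Sele was not tested. Ptgs2 (COX-2), with Plau the most abundant target, had a log2 fold change of −0.23 ± 0.97 (SE), which ran from −0.97 to 0.28 with a library left out. Cx3cl1, a membrane-bound chemokine, was at 24.8, 24.95, 21.4 and 99.0 CPM in wild-type and at 48.8, 51.0, 37.7 and 46.4 CPM in ΔAgo2, and is named because its call appeared when wild-type replicate 4 was left out, a choice made after its values were seen. The log2 fold change was 0.11 with an adjusted p of 0.963 in all 8 libraries, and 0.96 with an adjusted p of 0.0388 without that library. The classical inflammatory targets Il6 and Icam1 had at most 3 and 6 counts in any library and were not tested.

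**Figure D5:**
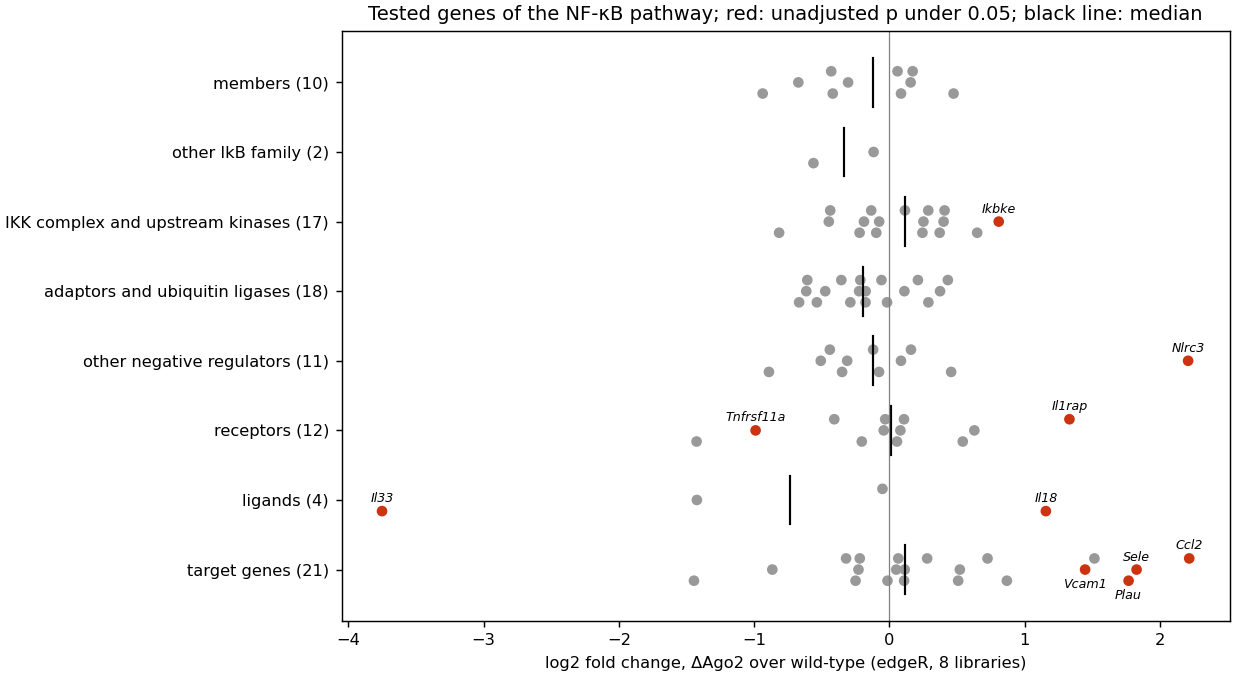
Log2 fold change, ΔAgo2 over wild-type (edgeR, 8 libraries, horizontal axis), of the tested genes of the 10 members and of each list of the pathway, with the number tested in parentheses, the median as a black line and genes with an unadjusted p under 0.05 in red. No member is red, and the red points include 4 target genes, all to the right of 0.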

How the data were processed

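Total RNA of cultured LLC cells was sequenced as paired-end libraries from a stranded mRNA kit. Reads were aligned by the authors against ribosomal RNA, then against mm10, counted per gene with featureCounts, and deposited as whole read counts without normalization. They also deposited TPM for the same libraries. The annotation and strand setting are not given in the sources used here. Gene positions and GC content came from GENCODE vM21 (93 identifiers unmatched).

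Groups and replicate numbers came from the labels. Counts were filtered with filterByExpr, scaled with TMM and tested with edgeR 4.0.16 in R 4.3.3 (quasi-likelihood, two-sided, genotype only), with Benjamini-Hochberg adjustment over 14228 genes. Standard errors are the log2 fold change over the square root of F. CPM use the TMM-scaled library sizes, and log2 CPM a prior count of 0.5. Composition values were compared with exact permutation tests in scipy 1.17.1. Alternatives were DESeq2 1.42.0, limma 3.58.1, other scalings and filters, a correction for GC content in 20 bins, the replicate block, and each library left out. Scripts were tested on simulated data.

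Named were the 10 genes, list genes with an unadjusted p under 0.05 in all 8 libraries, the 2 of highest TPM in each list, the gene nearest in pattern to each of the 10, and Ago2. Birc2, Tnip3 and Cx3cl1 were added after their values were seen, and some untested list genes are named for their low counts. The members and lists were chosen with earlier results of these data known.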

Additional observations from a re-analysis of the deposited data

Results flagged for a closer look

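In 34 groups of 4 libraries, the gap of the highest or lowest library to its neighbour was taken as a share of the whole range and compared with Dixon's critical value, which chance exceeds in about 1 of 20 groups. The limit was passed in 4 groups. In wild-type, replicate 4 was the library apart for Nfkb2 (0.929) and Rela (0.867) in log2 CPM, where it was high, and for the share of Nfkb1 among the subunits (0.911), where it was low. In ΔAgo2, replicate 2 was low for Rel (0.831), at 2.07 CPM next to 2.88 to 3.08 CPM.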

How the results depend on the processing

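Calls among the 10 genes stayed at 0 under every alternative, and these limits therefore concern directions and the lists. The count of all genes called, 42 with edgeR, was 399 with DESeq2, 257 with limma-voom and sample weights, 143 without a filter on low counts, 69 with the GC correction, 18 with the replicate block, 15 with limma on log2(TPM + 1), 11 with at least 50 counts, and 1 to 113 with a library left out. Among the other negative regulators 2 genes were called by DESeq2 and without a filter (Nlrc3 and Tnip3) and 1 with sample weights, with the GC correction, and with it and the block (Nlrc3). Among receptors 1 was called with sample weights (Tnfrsf11a). Among targets 1 was called by DESeq2, without a filter and on log2(TPM + 0.1) (Plau), 1 with sample weights (Cx3cl1), and 0 to 1 with a library left out. Those calls were Ccl2 without wild-type replicate 1 and Cx3cl1 without wild-type replicate 4.

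Signs reversed with the GC correction, and with it and the block, for Nfkb1 (−0.16, −0.055), Nfkb2 (0.10, 0.097), Rela (0.084, 0.092) and Bcl3 (0.32, 0.27), and with sample weights for Nfkb2 (0.16), Rela (0.17), Tnfaip3 (−0.20) and Bcl3 (0.054). Bcl3 also reversed on log2(TPM + 1) (0.17) and log2(TPM + 0.1) (0.21), scales on which the median over all genes was 0.15 and 0.22 against −0.11. The difference in the log2 ratio of non-canonical to canonical subunits was −0.059 with CPM. The cause was not tested. With a library left out, log2 fold changes ran from −0.59 to 0.56 for Bcl3, −0.59 to 0.22 for Nfkb2, −0.61 to 0.20 for Rela, −0.14 to 0.45 for Nfkbia, −0.044 to 0.61 for Relb, −0.11 to 0.33 for Tnfaip3, −1.29 to −0.45 for Rel, −0.93 to −0.19 for Nfkbie, 0.22 to 0.81 for Nfkbiz and 0.13 to 0.20 for Nfkb1, their median over the 10 genes from −0.30 to 0.21, the difference in the share of Nfkb1 from −0.086 to 2.95 percentage points and that in the log2 ratio from −0.070 to 0.11.

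The replicate numbers showed no clear pairing of the libraries. Deviations of same-numbered libraries correlated at −0.12, −0.047, 0.38 and 0.041, and only replicate 3 correlated best with its own number. Wild-type deviations were taken from a mean that includes wild-type replicate 4, so this check cannot exclude pairing. With the replicate block edgeR called 0 of the 10 genes and 18 of all genes.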
